A study of Mus musculus with 11 samples.

Results

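Luminal cells of terminal end buds (TEBs) were compared with luminal cells of the ducts behind them, in 5 of the 11 bulk RNA-seq libraries of the study. The members are the 3 libraries of the luminal TEB group and the 2 of the luminal duct group, taken by their labelled cell population and tissue, and the other 6 libraries are basal cells of the same structures. All 11 came from the mammary glands of C57BL/6 females that carry E-cadherin-GFP, aged 5 weeks. TEBs and ducts were dissected under a fluorescence microscope with the GFP as a guide, and Lin-CD29+CD24+ cells were then sorted by flow cytometry, the GFP-hi fraction as luminal and the GFP-lo fraction as basal. Every animal carried the same reporter. Each replicate was a pool of at least 2 mice. The authors dropped a luminal duct sample that had too few cells, which left duct replicates 1 and 3. Levels in these 2 libraries are printed separately because they differed in quality.

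TEBs are the club-shaped growing tips of the mammary ductal tree in puberty. An outer layer of cap cells covers an inner mass of body cells, and as the tip advances through the fat pad it leaves behind a duct with a luminal layer around the lumen and a contractile myoepithelial layer outside it. Luminal cells fall into a mature luminal (ML) or hormone-sensing class, marked by Esr1, Pgr and Prlr, and a luminal progenitor (LP) or secretory class, marked by Elf5 and Kit.

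Total counts in the 5 luminal libraries ran from 29522747 in duct replicate 3 to 43078096 in TEB replicate 3. Genes of the mitochondrial chromosome took 28.5% of the counts of duct replicate 3, 8.51% of duct replicate 1 and 4.34% to 4.77% of the TEB libraries. The luminal markers Krt8, Krt18, Krt19, Epcam, Cdh1 and Gata3 summed to 16939 and 11456 counts-per-million (CPM) in duct replicates 1 and 3 and to between 12393 and 13841 CPM in the TEB libraries, against 587 to 901 CPM in the basal libraries, so the luminal label held in all 5. Duct replicate 3 stood apart in other markers. Its 6 fibroblast markers summed to 249.7 CPM, against 6.03 CPM in duct replicate 1 and 11.7 to 53.1 CPM in TEB. The sum over immune markers was 38.5 CPM there, against 11.3 CPM in duct replicate 1 and 4.51 to 8.50 CPM in TEB, and Fabp4 of adipocytes was at 75.1 CPM, at 0 CPM and at 0.628 to 9.34 CPM respectively. The adipocyte markers Adipoq and Plin1 had 0 reads in duct replicate 3, so the adipocyte sum there was Fabp4 alone. Over a longer list of 20 fibroblast genes the sums were closer, at 242 and 412 CPM in duct replicates 1 and 3. In that list Col6a3 went the other way, at 231 CPM in duct replicate 1 and 55.3 CPM in duct replicate 3. So did the immune marker Cd68, at 11.1 and 5.63 CPM in the same order. The part of these transcripts of other cell types in the results was not tested. Many results, though not all, are given against duct replicate 1 alone as well.

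**Figure D1:**
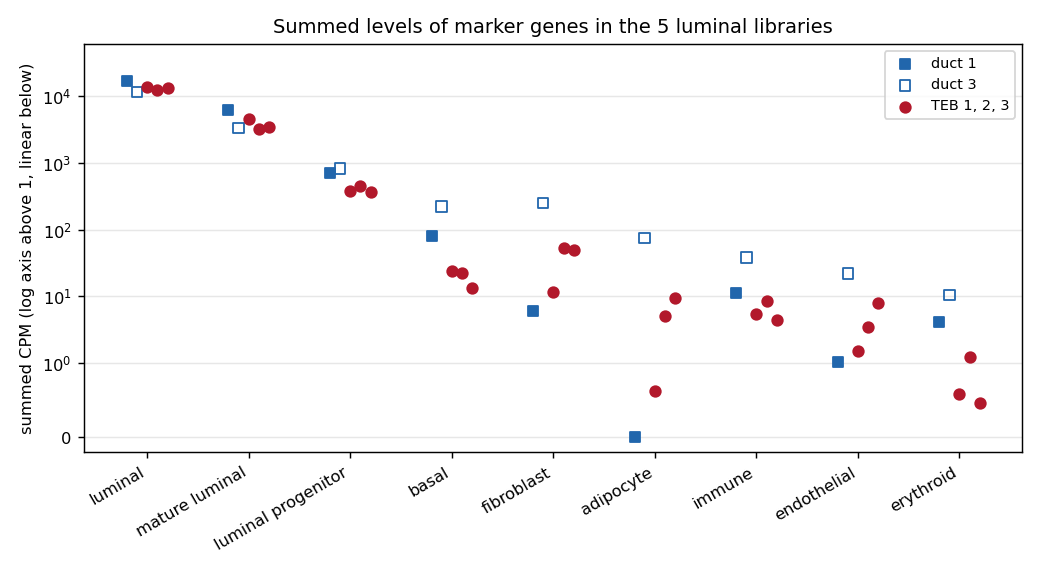
Summed CPM of the marker genes of each cell type in the 5 luminal libraries, on an axis that is logarithmic above 1 and linear below it. Duct replicate 3 (open squares) lies above the other 4 libraries for fibroblast, adipocyte (Fabp4 alone), immune, endothelial and erythroid markers, and both duct libraries lie above the 3 TEB libraries (circles) for LP and basal markers.

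Among 17370 genes tested, 245 (1.41%) differed between luminal cells of TEBs and ducts at an adjusted p (false discovery rate, FDR) below 0.05 in the quasi-likelihood test of edgeR, adjusted by Benjamini-Hochberg, 111 (0.639%) higher in TEB and 134 (0.771%) lower. The spread was estimated from all 4 groups, since the duct group holds only 2 libraries. The median log2 fold change was 0.04 over all genes tested, with a median absolute value of 0.58, against absolute medians of 1.62 for the genes higher in TEB and 2.09 for those lower. A gap between the groups is common at this size, because the values of 43.7% of all genes tested did not overlap between the 3 TEB and the 2 duct libraries. In bulk samples, fewer cells of a type and less RNA per cell cannot be told apart.

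Set against duct replicate 1 alone, the TEB libraries differed at 174 of 18686 genes (0.931%; 0.391% higher and 0.541% lower), and against duct replicate 3 alone at 1305 of 18683 (6.98%; 4.06% higher and 2.92% lower), by the same edgeR test. In both of these comparisons 68 genes passed with the same sign, 18 higher and 50 lower in TEB, and all 68 were among the 245. The sign was the same against either duct library for all 245. That was nearly fixed in advance, because the groups did not overlap for all 111 genes higher in TEB and 133 of the 134 lower. It is therefore no separate sign of agreement between the ducts. The call depended on single libraries for many genes. Of the 63 called genes named here, 45 lost the call without TEB replicate 3, 33 without TEB replicate 1, 32 without TEB replicate 2, 29 without duct replicate 3, 6 without duct replicate 1 and at most 15 without any 1 basal library, while 18 kept it whichever of the 11 libraries was left out.

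**Figure D2:**
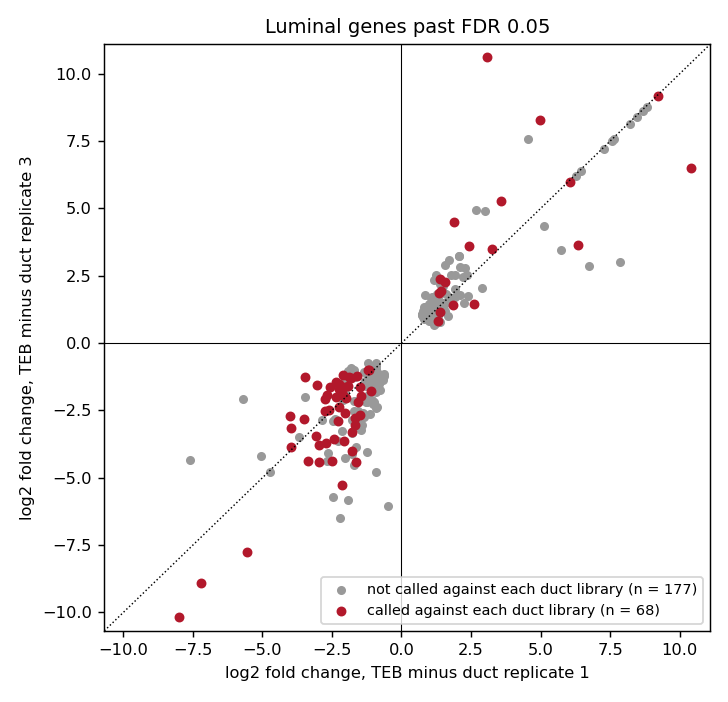
Log2 fold changes of the 245 genes past FDR 0.05, for the 3 TEB libraries against duct replicate 1 alone (x) and duct replicate 3 alone (y), with the line of equal change dotted. Every point lies at upper right or lower left, as groups that do not overlap nearly require. Genes called against each duct library are filled in red.

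Of the genes named as higher in TEB, the smallest p was that of Has2, a hyaluronan synthase, at chr15:56665627-56694546 of mouse build GRCm38 (RefSeq gene span, as for the other positions here). Its level was 3.98 and 3.33 CPM in duct replicates 1 and 3 and 30.4, 40.7 and 41.8 CPM in TEB replicates 1 to 3. The TEB libraries were thus all far above both ducts, with a log2 fold change of 3.36 ± 0.33 (SE) at FDR 0.00377 by the edgeR test. Tgfbr2, the type II receptor for TGF-beta (chr9:116087695-116175363), stood at 135 and 159.5 CPM in the ducts and 309, 356 and 392 CPM in TEB, a log2 fold change of 1.26 ± 0.19 at FDR 0.0122. Gja1, which encodes the gap junction protein connexin 43 (chr10:56377300-56390419), was at 8.19 and 4.11 CPM in the ducts and at 22.9, 21.3 and 20.1 CPM in TEB, which is 1.79 ± 0.26 on the log2 scale with FDR 0.0110. For all 3 genes the lowest TEB library exceeded the highest duct library.

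Tmtc3, an O-mannosyltransferase of the endoplasmic reticulum, rose from 22.4 and 13.9 CPM in the duct replicates to 61.9 to 75.2 CPM in TEB (log2 fold change 1.87 ± 0.23, FDR 0.00573). The kinase gene Lrrk1 rose from 27.9 and 19.6 CPM to 72.1 to 77.5 CPM (1.64 ± 0.23 on the log2 scale, FDR 0.00943). Selenoi, an enzyme of phosphatidylethanolamine synthesis, held within 42.2 to 43.7 CPM in TEB and was at 17.0 and 11.8 CPM in the ducts (FDR 0.0104). A pair of Golgi membrane protein genes rose as well. Golim4 was at 82.1 and 183 CPM in the ducts and 459, 483 and 546 CPM in TEB, and Golm1 at 32.5 and 43.6 CPM and 100.2, 128 and 124 CPM, with log2 fold changes of 1.90 ± 0.29 (FDR 0.0127) and 1.62 ± 0.27 (FDR 0.0191). Has2, Tmtc3, Lrrk1, Selenoi, Gja1, Tgfbr2, Golim4 and Golm1 passed the same test against each duct library alone. Has2, Tmtc3, Lrrk1 and Gja1 kept the call with any 1 library left out, whereas without TEB replicate 3 the FDR was 0.0549 for Selenoi, 0.0748 for Tgfbr2, 0.0620 for Golim4 and 0.0834 for Golm1, and Golm1 was also lost without TEB replicate 2 (FDR 0.0670).

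The other genes named as higher in TEB for their fold or p included Atp10a and Aspm. Atp10a, a phospholipid flippase, was at 3.12 and 0.822 CPM in duct replicates 1 and 3 and at 23.2 to 26.6 CPM in TEB, a log2 fold change of 3.64 ± 0.70 (FDR 0.0296), and it did not pass against duct replicate 1 alone (FDR 0.0885). Aspm, a spindle pole protein, was at 11.5 and 7.03 CPM in the ducts and 45.1 to 54.7 CPM in TEB (2.43 ± 0.41 on the log2 scale, FDR 0.0180), with FDR 0.0873 against duct replicate 1 alone. Ldlrad3, Arhgap19, Slfn9, Pcdhgc3, Prr11, Celf4, Dpy19l1 and the mitotic kinase gene Nek2 also rose, with log2 fold changes from 1.57 for Dpy19l1 to 2.66 for Ldlrad3. Of these 8 genes, Ldlrad3 alone passed against each duct library (FDR 0.0286 against replicate 1 and 0.000360 against replicate 3). Each of these 10 genes lost the call without TEB replicate 3, with FDR from 0.0660 for Dpy19l1 to 0.202 for Celf4. Slfn9 and Pcdhgc3 share sequence or exons with neighbouring family members, so their counts are less certain.

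**Figure D3:**
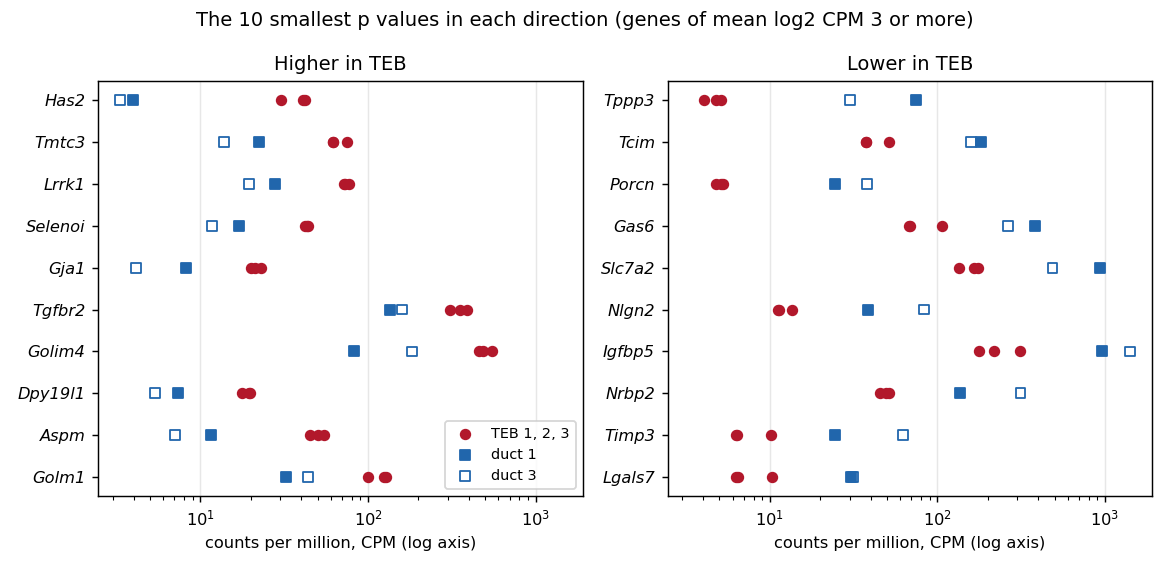
CPM (log axis) in each luminal library for the 10 genes higher in TEB and the 10 lower in TEB with the smallest p among the genes named, of those with a mean of at least 3 log2 CPM. In every row the 3 TEB circles lie to 1 side of both duct squares, as the naming rule requires, and the duct squares of Lgals7 and Tcim lie closer together than those of Nrbp2 and Timp3.

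Genes of cell division had higher values in luminal cells of TEBs in nearly every case measured, though few passed the test. All 25 mitosis genes listed and all 27 DNA replication genes had a positive log2 fold change, with medians of 1.58 and 1.45 against 0.04 over all genes tested, and 24 and 27 of them had no overlap between the groups, against 26.2% of all genes tested in that direction. At FDR 0.05, 2 mitosis genes and 5 DNA replication genes rose and none fell, against 0.639% of all genes tested that rose, and with duct replicate 1 alone neither list held a called gene. Summed over the list, mitosis genes were at 752 and 874 CPM in duct replicates 1 and 3 and at 2184, 2014 and 2400 CPM in TEB replicates 1 to 3. DNA replication genes summed to 851 and 808 CPM in the ducts and to 1853, 1847 and 2152 CPM in TEB. In these sums the duct replicates that differed so widely in other markers were close to each other. The mean log2 CPM was 4.47 and 4.61 for mitosis genes in duct replicates 1 and 3. For DNA replication genes it was further apart, at 4.30 and 3.67.

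Promoters of called members are shown to give the sequence context of the group, as the 200 bases before the RefSeq start in build GRCm38.p6, on the + strand. They are the 2 called mitosis genes and the 2 called DNA replication genes with the smallest FDR, and capitals mark matches on either strand to the CCAAT box (CCAAT) and to an E2F-type motif (GCGGGAA), both bound by regulators of cell cycle genes.
Plk1, chr7:122159235-122159434: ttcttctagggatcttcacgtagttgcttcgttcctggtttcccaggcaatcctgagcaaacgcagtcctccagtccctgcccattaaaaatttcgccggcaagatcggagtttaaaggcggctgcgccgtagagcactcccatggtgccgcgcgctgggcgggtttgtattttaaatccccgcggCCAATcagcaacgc
Cenpe, chr3:135212363-135212562: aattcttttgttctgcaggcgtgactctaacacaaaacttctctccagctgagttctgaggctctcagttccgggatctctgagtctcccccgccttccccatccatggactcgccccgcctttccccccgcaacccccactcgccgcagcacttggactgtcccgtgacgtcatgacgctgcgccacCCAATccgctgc
Chaf1a, chr17:56040216-56040415: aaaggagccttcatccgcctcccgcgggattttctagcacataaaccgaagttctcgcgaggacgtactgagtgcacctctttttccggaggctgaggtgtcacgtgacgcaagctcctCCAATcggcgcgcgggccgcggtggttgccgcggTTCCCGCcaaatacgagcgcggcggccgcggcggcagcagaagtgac
Rrm2, chr12:24708054-24708253: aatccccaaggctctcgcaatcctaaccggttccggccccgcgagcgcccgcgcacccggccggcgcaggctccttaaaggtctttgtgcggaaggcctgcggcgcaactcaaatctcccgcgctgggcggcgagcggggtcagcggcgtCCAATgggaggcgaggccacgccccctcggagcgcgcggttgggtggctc
All 7 called members of the 2 lists had a CCAAT match in these 200 bases. Among genes tested with a promoter in the table (12759 of 17370), 35.7% had one, against 17 of 21 mitosis genes (81.0%) and 12 of 21 DNA replication genes (57.1%) that were in it. The E2F-type motif was in 6 of 21 DNA replication promoters (28.6%), in 0 of 21 mitosis promoters and in 6.39% of all those tested, and TTTGAA, the core of the cell cycle element called CHR, was in 8 of 21 (38.1%), 2 of 21 (9.52%) and 9.88% for mitosis, DNA replication and all genes. A match is a description of the sequence and not evidence of binding.

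Among the 7 called genes, Plk1, a kinase of mitotic entry, was at 10.4 and 12.9 CPM in duct replicates 1 and 3 and at 43.3, 36.7 and 53.4 CPM in TEB (log2 fold change 1.93 ± 0.41, FDR 0.0439). Cenpe, a kinetochore motor, was at 18.5 and 16.4 CPM in the ducts and 92.7, 85.4 and 110.0 CPM in TEB (2.46 ± 0.52 on the log2 scale, FDR 0.0447). Rrm2, the regulatory subunit of ribonucleotide reductase, was at 28.1 and 18.1 CPM and 73.8, 67.6 and 94.9 CPM in the same order (FDR 0.0220). For these 3 genes every TEB library lay above both ducts. Chaf1a, a subunit of the chromatin assembly factor, and Mcm3, Mcm5 and Mcm6, subunits of the replicative helicase, rose by 1.45 (Mcm5) to 1.72 (Chaf1a) on the log2 scale, at FDR 0.0206 to 0.0487. Well-known members that did not pass included Mki67 (159 and 227 CPM in the ducts, 366 to 395 CPM in TEB, FDR 0.222) and Top2a (101 and 80.2 CPM and 295 to 353 CPM, FDR 0.0680). Without duct replicate 3 the FDR of the 7 rose to between 0.0886 (Chaf1a) and 0.196 (Mcm5), and without TEB replicate 3 to between 0.103 (Chaf1a) and 0.174 (Mcm5). All 7 were lost without TEB replicate 1 or without TEB replicate 2 as well. The count of called mitosis genes was 17 by the likelihood ratio test, 16 by DESeq2, 16 with the luminal libraries fitted alone and 16 without basal duct replicate 2. It was 0 with the replicate block, with the mitochondrial share as a covariate, with no composition normalization, and without basal TEB replicate 2, basal TEB replicate 3 or basal duct replicate 1. The count of called DNA replication genes in the first 4 of these fits was 14, 15, 10 and 10, and it was 3 with the block, 0 with the covariate and 0 with no composition normalization. Of all genes tested, 2.64% were called higher in TEB by the likelihood ratio test and 3.07% by DESeq2. With the luminal libraries alone 312 of 15390 genes were called higher, and without basal duct replicate 2 it was 191 of 17131.

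Regulators of the cell cycle were mixed. Rb1, the retinoblastoma protein that restrains entry into S phase, was lower in TEB, at 32.6, 36.7 and 28.1 CPM against 67.3 and 73.3 CPM in duct replicates 1 and 3 (log2 fold change -1.11 ± 0.22, FDR 0.0324), and it was the only called gene among 13 G1 cyclins and inhibitors. Leaving out TEB replicate 3 gave FDR 0.159. Ccnd1, which encodes cyclin D1, was at 440.4 and 495 CPM in the ducts and 894, 920.1 and 919.5 CPM in TEB, with no overlap and FDR 0.0850. The list's median log2 fold change was 0.22.

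In the Wnt pathway the ligand Wnt5a was higher in TEB, at 391, 403 and 470.4 CPM against 56.0 and 103 CPM in duct replicates 1 and 3. That is a log2 fold change of 2.40 ± 0.46 at FDR 0.0302, and the FDR was 0.0591 and 0.0607 against duct replicates 1 and 3 alone and 0.113 without TEB replicate 3. Axin2, a feedback inhibitor induced by canonical Wnt signalling, was represented by 1 and 4 reads in the ducts and by 1.82, 2.63 and 1.75 CPM in TEB (log2 fold change 4.63 ± 0.65, FDR 0.00950). Its fold rests on very few duct reads and on levels under 3 CPM. The call held against each duct library and with any 1 library left out. Porcn (chrX:8193846-8206548), the acyltransferase that lipidates Wnt ligands for secretion, was lower in TEB, at 5.29, 5.12 and 4.76 CPM against 24.5 and 38.0 CPM, with a log2 fold change of -2.62 ± 0.31 (FDR 0.00478), and this call also held with any 1 library left out. Of 13 Wnt pathway genes in the list, which does not hold Porcn, 2 rose and none fell, and the median was -0.55 with both ducts but 0.38 against duct replicate 1 alone. Tcf7l2, a transcription factor of the pathway, was at 60.8 and 56.5 CPM in the ducts and 25.0, 27.1 and 23.0 CPM in TEB, just short of the threshold (FDR 0.0517).

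Of the genes named as lower in TEB, the smallest p was that of Tppp3, a tubulin-binding protein (chr8:105467492-105471422). It was at 74.1 and 30.1 CPM in duct replicates 1 and 3 and at 4.04, 4.78 and 5.09 CPM in TEB, a log2 fold change of -3.49 ± 0.37 at FDR 0.00377 by edgeR's test. Tcim was at 182 and 158 CPM in the ducts and 51.1, 37.5 and 37.5 CPM in TEB (-2.02 ± 0.22 on the log2 scale, FDR 0.00377). These genes were low in every TEB library, and the ducts differed more for Tppp3 than for Tcim. Gas6, the ligand of the TAM receptor kinases (chr8:13465374-13494535), was at 384 and 263 CPM and 106, 68.6 and 67.7 CPM in the same order, with FDR 0.00478. Slc7a2, a transporter of arginine and other cationic amino acids, fell from 927 and 486 CPM to 176, 134 and 165 CPM (log2 fold change -2.16 ± 0.26, FDR 0.00517). Both were higher in duct replicate 1 than in duct replicate 3, the library with the fibroblast transcripts.

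Others of the group were higher in duct replicate 3. Igfbp5, which binds insulin-like growth factors, was at 954 and 1417 CPM in duct replicates 1 and 3 and 217, 313 and 177 CPM in TEB (log2 fold change -2.33 ± 0.31, FDR 0.00864), while its level in basal ducts was 6704 ± 709.9 CPM (SD, n = 3). Nlgn2, a neuroligin of cell adhesion, Nrbp2, and Timp3, an inhibitor of matrix metalloproteinases, fell by 2.33, 2.20 and 2.51 on the log2 scale (FDR 0.00573, 0.00864 and 0.00864). Duct replicate 3 was at 82.9, 313 and 62.3 CPM for the 3 genes and duct replicate 1 at 38.7, 136 and 24.5 CPM. Lgals7, an epithelial galectin, was at 30.6 and 31.3 CPM in the ducts and 6.46, 10.3 and 6.26 CPM in TEB, which is -2.01 ± 0.27 on the log2 scale (FDR 0.00864). Tppp3, Tcim, Porcn, Gas6, Slc7a2, Nlgn2, Igfbp5, Nrbp2, Timp3 and Lgals7 all passed against duct replicate 1 alone, at FDR 0.000677 (Tppp3) to 0.0189 (Lgals7), and with any 1 library left out.

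Among genes lower in TEB with a mean of at least 3 log2 CPM over the luminal libraries, the 3 of largest fold named here were Fcgbp, Muc13 and Fxyd2, which were higher in luminal than in basal ducts. Fcgbp, which encodes a mucus-associated protein, was at 178 and 186 CPM in duct replicates 1 and 3 and at 3.72, 10.8 and 5.80 CPM in TEB, a log2 fold change of -4.75 ± 0.97 (FDR 0.0382). Muc13, a transmembrane mucin, was at 103 and 57.7 CPM and 6.61, 4.95 and 8.09 CPM in the same order (-3.62 ± 0.60 on the log2 scale, FDR 0.0180). Fxyd2, a regulator of the sodium pump, was at 174 and 154 CPM and 11.1, 10.6 and 19.5 CPM (FDR 0.0206). In basal ducts the 3 genes averaged at most 2.86 CPM. Muc13 passed against each duct library (FDR 0.0260 for replicate 1), whereas Fcgbp and Fxyd2 had FDR 0.0918 and 0.0636 against duct replicate 1 alone. Without TEB replicate 3 the FDR was 0.163 for Fcgbp, 0.0789 for Muc13 and 0.0750 for Fxyd2.

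Ndrg1, Gadd45g, Dgki, Gabbr1 and Dus2 were also among the larger falls, with log2 fold changes from -2.86 for Dus2 to -2.42 for Gabbr1. Ndrg1, a gene induced by hypoxia and differentiation, was at 247 and 52.9 CPM in duct replicates 1 and 3 and 26.6, 21.9 and 18.6 CPM in TEB (FDR 0.0191). Gadd45g, a stress and growth arrest gene, was at 1073 and 675 CPM and 211, 122 and 150.1 CPM (FDR 0.0282). The ducts differed by over 4 times for Ndrg1, with TEB below both, and by less for Gadd45g. Bnip3, another hypoxia gene, fell by 2.93 (FDR 0.0403) and was the only called gene of 21 in the glycolysis and hypoxia list, whose median log2 fold change was -0.21. Without TEB replicate 3 these 6 genes had FDR from 0.0660 (Gabbr1) to 0.174 (Bnip3).

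Transcripts of basal and myoepithelial cells made up a large group among the genes lower in luminal TEB. All 14 genes of the basal list had a negative log2 fold change (median -3.18), and 10 fell, against 0.771% of all genes tested. The 10 were the keratins Krt5, Krt14 and Krt17, the contractile genes Acta2, Myh11, Mylk, Myl9, Cnn1 and Tagln, and the oxytocin receptor gene Oxtr. Acta2, the smooth muscle actin of myoepithelial cells, was at 34.6 and 103 CPM in duct replicates 1 and 3 and at 10.8, 8.67 and 5.14 CPM in TEB, against 6494 ± 519.9 CPM in basal ducts (log2 fold change -3.07 ± 0.44, FDR 0.0104). Krt14 was at 14.3 and 18.8 CPM and 0.785, 3.07 and 1.23 CPM with 2419 ± 558 CPM in basal ducts (FDR 0.0107), and Oxtr at 12.4 and 26.9 CPM and 3.16, 2.21 and 1.56 CPM with 827 ± 68.4 CPM (FDR 0.00414). Luminal levels were thus a small part of the basal ones in every library.

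The 14 genes were also lower in basal TEB than in basal ducts, with a median log2 fold change of -1.79. There 6 of them fell at FDR 0.05 by edgeR, against 1.16% of all genes tested. The luminal change differed from the basal one at FDR 0.05 for 0 of the 14, against 0.443% of all genes tested. As a share of the mean in basal ducts, used for the TEB libraries too, the median over the 14 genes was 0.586% in duct replicate 1, 2.04% in duct replicate 3 and 0.144%, 0.202% and 0.106% in TEB replicates 1 to 3. The sum of the 6 basal marker genes was likewise highest in duct replicate 3, then duct replicate 1, and lowest in TEB replicate 3, at 80.7 and 221.5 CPM in the ducts and 13.1 to 24.1 CPM in TEB. Duct replicate 3, where most of these transcripts were highest, was also the library with the fibroblast, Fabp4 and immune transcripts. Trp63, a basal transcription factor in the list, went the other way. It was at 3.44 CPM in duct replicate 1, 0.206 CPM in duct replicate 3 and 0.583 to 1.70 CPM in TEB. Its log2 fold change against duct replicate 3 alone was 2.32. Against duct replicate 1 alone, 7 of the 14 fell (0.541% of all genes tested fell) and the median was -1.78, and against duct replicate 3 alone 12 fell (2.92%) with a median of -3.60. Whether luminal cells of ducts express these genes at a low level or basal cells were carried into the sort was not tested. The count was 3 without TEB replicate 3, 1 by limma voom and 1 with no composition normalization. All 14 kept the negative sign in those 3 fits.

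More widely, 42 of the 134 genes lower in TEB (31.3%) had a mean in basal ducts more than 10 times that in luminal ducts, against 6.35% of all genes tested, and 50 had a basal level at or below the luminal one. Some genes higher in TEB were mainly basal as well. For 20 of the 111, the mean in basal TEB was more than 10 times that in luminal TEB, against 7.59% of all genes tested. Gja1 and Axin2 were among these 20, and another 42 of the 111 had a basal level at or below the luminal one. Duct replicate 3 exceeded duct replicate 1 for 91 of the 134 (67.9%), against 42.5% of all genes tested and 38 of the 111 genes higher in TEB (34.2%). Cxcl14, a chemokine, Igfbp3 and Lama3, the laminin alpha-3 chain, were of this kind, at 3.73, 3.55 and 9.04 CPM in duct replicate 1, 26.9, 16.5 and 21.1 CPM in duct replicate 3 and at most 1.70, 1.21 and 5.05 CPM in TEB. Each fell, at FDR 0.0178, 0.0122 and 0.0220, and the FDR against duct replicate 1 alone was 0.0590, 0.0273 and 0.119. Without TEB replicate 3 it was 0.0841, 0.0713 and 0.102. Of the 20 fibroblast, 10 adipocyte, 16 immune, 10 endothelial and 4 erythroid genes tested, 0 passed by edgeR, with lowest FDR of 0.10, 0.15, 0.16, 0.46 and 0.29. Over these 60 genes, 12 (20%) had an unadjusted p below 0.05, 4 (6.67%) passed by DESeq2 and 1 (1.67%) by limma voom, near the 16.6%, 7.35% and 2.02% of all genes tested. These counts take both ducts together, and the ducts pulled apart. The median log2 fold change of fibroblast genes was 3.62 against duct replicate 1 alone and -2.68 against duct replicate 3 alone. For immune genes it was 4.08 and -2.32, and for all genes tested 0.09 and 0.22. Cxcl14 was the only called gene of 13 chemokines, whose median was -0.46. In the IGF list 2 of 10 fell, Igfbp3 and Igfbp5, with a median of -1.95 that was 0.75 against duct replicate 1 alone.

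**Figure D4:**
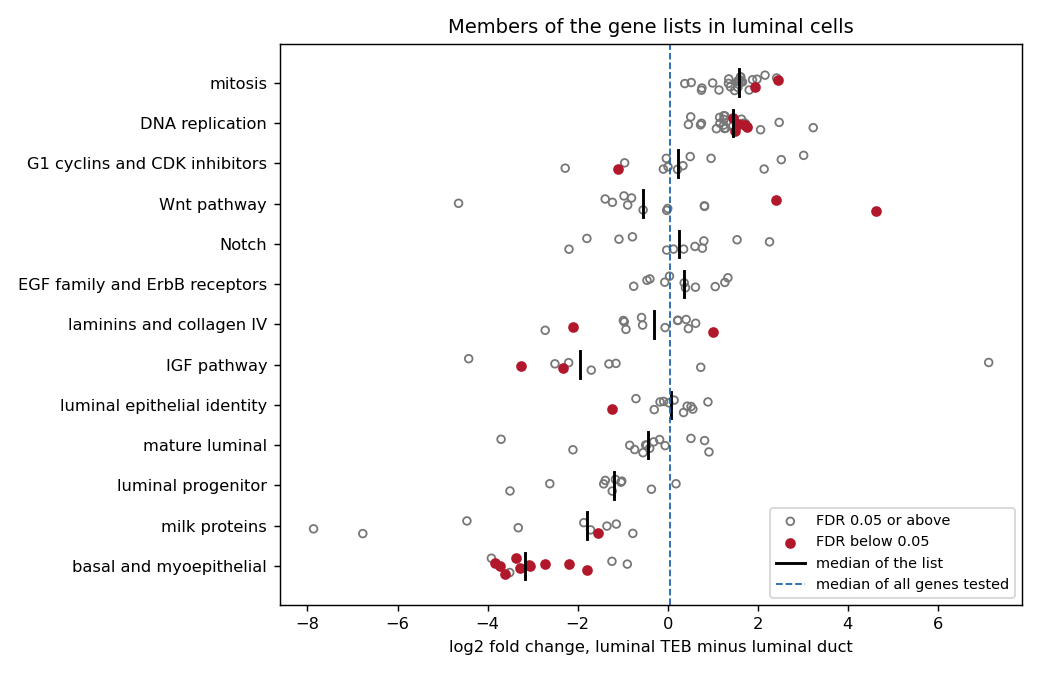
Log2 fold change of each tested member of 13 gene lists (x, luminal TEB minus luminal duct), filled where FDR was below 0.05, with a black bar at the list's median and a dashed line at the median of all genes tested. Mitosis and DNA replication genes all lie right of 0, with medians of 1.58 and 1.45, and the 14 basal genes all lie left of 0, with a median of -3.18.

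Of 12 genes of shared luminal identity, 1 passed FDR 0.05 by edgeR. At an unadjusted p below 0.05 there were 5 (41.7%), against 16.6% of all genes tested. By DESeq2 3 passed, and by limma voom 3 (25.0% each), against 7.35% and 2.02% of all genes tested. Krt8 was at 6336 and 3304 CPM in duct replicates 1 and 3 and 5164, 4684 and 4867 CPM in TEB, and Krt19 at 5005 and 3089 CPM and 4773, 4018 and 4602 CPM, with FDR 0.994 and 0.897. The TEB values lay between those of the ducts for both genes. Krt18 was lower in TEB without overlap, at 3960 and 3518 CPM in the ducts and 2399, 2144 and 2336 CPM in TEB (FDR 0.170). Cdh1, the gene of E-cadherin, was higher without overlap, at 248 and 268 CPM in the ducts and 440, 499 and 498 CPM in TEB, but was not called. The gene that passed was Gata3, a transcription factor of luminal differentiation, at 163, 127 and 185 CPM in TEB against 333 and 413 CPM in the ducts (log2 fold change -1.23 ± 0.22, FDR 0.0241). Its call was lost against duct replicate 1 alone (FDR 0.0955) and without TEB replicate 1, 2 or 3 (FDR 0.0795, 0.0882 and 0.0713). The list's median log2 fold change was 0.08.

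Genes of the ML class showed no called difference, with 0 of 14 past FDR 0.05 by edgeR, 0 at an unadjusted p below 0.05 and a median log2 fold change of -0.43, which was 0.32 against duct replicate 3 alone. The prolactin receptor gene Prlr was at 2749.6 and 1674 CPM in duct replicates 1 and 3 and 1721, 1485 and 1601 CPM in TEB (FDR 0.675). Esr1, the oestrogen receptor, was at 66.3 and 59.0 CPM and 108, 125 and 122 CPM (FDR 0.611), and Pgr, the progesterone receptor, at 583 and 236 CPM and 462, 183 and 285 CPM (FDR 0.642). The groups overlapped for Prlr and Pgr and did not for Esr1, whose TEB values were higher. For LP genes 0 of 10 passed by edgeR and 3 had an unadjusted p below 0.05, against 16.6% of all genes tested. Yet 9 were negative and without overlap, where 17.4% of all genes tested were so in that direction. The median was -1.20, and it was -0.91 against duct replicate 1 alone and -1.29 against duct replicate 3 alone. Elf5, the regulator of the secretory lineage, was at 123 and 84.0 CPM and 40.4, 48.3 and 27.1 CPM (FDR 0.510), Kit at 178 and 306 CPM and 107, 159.5 and 87.7 CPM (FDR 0.346) and Aldh1a3 at 155 and 149 CPM and 59.0, 76.3 and 58.3 CPM (FDR 0.184). For these 3 genes both ducts were above each TEB library. The count of called LP genes was 4 of 10 by limma voom and 1 by DESeq2, all lower in TEB. For ML genes it was 1 lower by limma voom, 0 by DESeq2 and 1 higher with the luminal libraries fitted alone. Of all genes tested, 2.02% were called by limma voom and 7.35% by DESeq2, in either direction.

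Milk protein genes were lower in TEB in sign. All 10 tested had a negative log2 fold change (median -1.79), and 1 fell, Mfge8, the milk fat globule protein, at 131, 189.8 and 118 CPM in TEB against 406 and 455 CPM in duct replicates 1 and 3 (log2 fold change -1.56 ± 0.23, FDR 0.0110). The ducts were close and all TEB libraries lay below them. Csn3, which encodes kappa-casein, was at 384 and 355 CPM and 135, 194 and 106 CPM (FDR 0.406), and Btn1a1, the butyrophilin of the milk fat globule, at 31.0 and 34.4 CPM and 1.26, 2.06 and 1.14 CPM (FDR 0.0959). Mfge8 passed against each duct library, and lost the call without TEB replicate 1 (FDR 0.0638) or TEB replicate 3 (FDR 0.0660). By DESeq2, limma voom or edgeR's likelihood ratio test 3 of the 10 fell. Of all genes tested, 7.35%, 2.02% and 5.79% were called by these tests, in either direction. The list's median was -1.26 against duct replicate 1 alone and -1.98 against duct replicate 3 alone.

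Of the laminins and collagen IV chains, Lamb3, a chain of laminin-332, rose from 23.1 and 26.8 CPM in duct replicates 1 and 3 to 50.0, 49.7 and 50.7 CPM in TEB (log2 fold change 1.01 ± 0.20, FDR 0.0349), in the opposite direction to Lama3. TEB libraries were nearly equal to each other for Lamb3. The call was lost against either duct library alone (FDR 0.0722 and 0.0532) and without TEB replicate 3 (FDR 0.142). By edgeR 0 genes passed in the lists for Notch (lowest FDR 0.06, 12 genes tested), EGF family and ErbB receptors (0.11, 11 genes), cholesterol synthesis (0.10, 20 genes), fatty acid synthesis (0.07, 13 genes), interferon and antigen presentation (0.13, 16 genes), mucosal glycoproteins (0.13, 12 genes) or antioxidants (0.08, 17 genes). The same held for ribosomal proteins (0.08, 20 genes), ribosome biogenesis (0.18, 16 genes), nuclear OXPHOS subunits (0.16, 18 genes), immediate early genes (0.09, 22 genes), heat shock genes (0.34, 12 genes), apoptosis regulators (0.16, 12 genes) and the 13 mitochondrially encoded genes (0.12). Over these 14 lists, 66 of 214 genes (30.8%) had an unadjusted p below 0.05, and 37 (17.3%) passed by DESeq2 and 13 (6.07%) by limma voom, against 16.6%, 7.35% and 2.02% of all genes tested. The lists were uneven. All 13 mitochondrially encoded genes had an unadjusted p below 0.05, and 9 passed by DESeq2 and 0 by limma voom. For the 20 ribosomal protein genes these counts were 11, 10 and 2, and for the 12 heat shock genes each was 0. The mitochondrially encoded genes had a median log2 fold change of -2.55, with the highest levels in duct replicate 3. Cholesterol synthesis genes were positive in 16 of 20 cases (median 0.70) and ribosomal protein genes negative in 19 of 20 (median -0.51). The antioxidant gene Gpx3 was at 8278 and 966 CPM in the ducts and 1024, 87.1 and 240.1 CPM in TEB, a spread of over 10 times within TEB (FDR 0.110).

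The change between TEB and duct was then compared with that in basal cells of the same structures, by the interaction term of the same edgeR model. It passed FDR 0.05 at 77 of 17370 genes (0.443%), with a positive difference at 0.363% of the genes tested, and the 77 included 26 of the 111 genes higher in luminal TEB and 11 of the 134 lower. The interaction term contains the luminal change by which those genes were called. A share above that of all genes tested is thus partly built in and says nothing by itself about the lineages. Has2 changed by 3.36 in luminal and -0.39 in basal cells, a difference of 3.75 ± 0.40 (SE, FDR 0.00401), its basal level being 73.8 ± 9.22 CPM in ducts and 56.1 ± 19.3 CPM in TEB (SD, n = 3 each). Tgfbr2 rose in luminal TEB and fell in basal TEB, from 84.5 ± 7.01 to 45.5 ± 6.09 CPM (basal log2 fold change -0.89, FDR 0.0249), and the difference was 2.15 ± 0.25 (FDR 0.00563). Lamb3 likewise fell in basal TEB (-0.91 on the log2 scale, FDR 0.0279), with a difference of 1.92 ± 0.27 (FDR 0.0126). These 2 genes moved in opposite directions in the lineages, each past the test.

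Porcn fell in luminal TEB and had a basal log2 fold change of 0.98 (FDR 0.124), from 32.5 ± 5.32 to 64.1 ± 20.7 CPM, so the difference was -3.60 ± 0.41 (FDR 0.00479). For Gja1 the difference was 2.44 ± 0.34 (FDR 0.0126) and for Axin2 4.66 ± 0.75 (FDR 0.0253), whose basal level was near equal in both structures, at 27.2 ± 4.13 CPM in ducts and 26.7 ± 1.74 CPM in TEB. The basal level of Gja1 was 364.5 ± 15.96 CPM in ducts and 231.4 ± 31.09 CPM in TEB, far above its luminal level in each. Tmtc3, Lrrk1 and Lgals7 differed between lineages too. In contrast, Tppp3 changed by -3.45 in basal cells (FDR 0.00133), and the difference from its luminal change did not pass, at -0.04 ± 0.49 (FDR 1.000). Oxtr, Igfbp5, Slc7a2 and Tcim also fell in both lineages, with basal log2 fold changes of -2.89, -2.06, -1.40 and -1.37 (FDR 0.00175, 0.00545, 0.0150 and 0.00656). In all, 24 of the 134 genes lower in luminal TEB also fell in basal TEB, where 1.32% of all genes tested changed and 1.16% fell, and 0 of the 111 higher ones rose there by edgeR, where 0.167% rose. Of those 111, 28 were higher in basal TEB at an unadjusted p below 0.05 (6.62% of all genes tested), 7 by DESeq2 (1.30%) and 5 by limma voom (1.08%) at FDR 0.05. The 2 basal TEB libraries with mitochondrial shares of 17.8% and 37.5% limit the basal side.

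**Figure D5:**
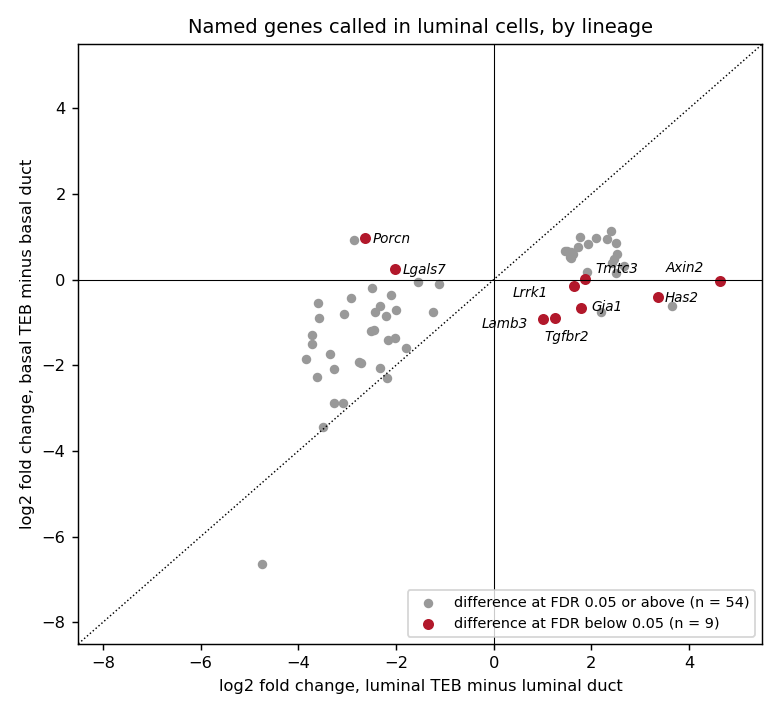
Log2 fold change between TEB and duct in luminal cells (x) and basal cells (y) for the 63 called genes named here, with the line of equal change dotted. Red points, labelled, are the 9 genes whose change differed between lineages at FDR below 0.05, among them Tgfbr2 and Lamb3, which rose in luminal and fell in basal TEB.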

How the data were processed

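The authors sequenced polyA RNA of sorted cells in 80 bp paired-end reads, used Rsubread to align these to mm10, and took counts per Entrez gene from featureCounts with its inbuilt RefSeq annotation. The TruSeq RNA v2 kit does not mark strand, so overlapping genes cannot be told apart. The deposited values are whole counts per gene, not normalized, and each library's own table equalled its column in the series table, with 0 columns not used. A symbol was found for 25275 of the 27179 identifiers.

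The filterByExpr rule at a count of 10 and a total of 15 kept 17370 genes, and TMM set the library scaling. The 4 groups of 11 libraries were fitted in 1 model with edgeR 4.0.16 in R 4.3.3, with limma 3.58.1 and DESeq2 1.42.0 as alternatives. The common biological coefficient of variation was 0.704. CPM use TMM-scaled library sizes, log2 CPM a prior count of 2, and each SE comes from the fold change and its F statistic (absolute log2 value over the root of F). Replicates are pools of mice. Counts were 29522747 to 43078096 per luminal library, and a count of 0 allows up to 3 counts, for counting error only. Scripts were tested on simulated data.

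Genes named passed FDR 0.05 and averaged 3 log2 CPM or more over the luminal libraries, with groups that did not overlap and a symbol that is not a predicted name. They are the 12 of largest fold, the 10 of smallest p and the 8 of smallest p called against both duct libraries, in each direction, and called members of 32 gene lists, with up to 4 uncalled members of each list. Esr1, Pgr and Elf5 were added as examples after their values were seen, as were the genes without duct reads. The members, lists and tests were chosen with earlier results of these data known. Alternatives were another scaling or none, no filter, other tests, a replicate block, the luminal libraries alone, mitochondrial genes removed, the mitochondrial share as a covariate, and each library left out.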

Additional observations from a re-analysis of the deposited data

Results flagged for a closer look

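For 11 of the genes named, the change from duct to TEB differed between luminal and basal cells at FDR below 0.05 by the interaction term of the edgeR model. The differences, luminal minus basal change on the log2 scale, were 4.66 for Axin2, 3.75 for Has2, 2.44 for Gja1, 2.28 for H2-D1, 2.15 for Tgfbr2, 1.92 for Lamb3, 1.85 for Tmtc3, 1.80 for Lrrk1, 1.67 for Jag1, -2.26 for Lgals7 and -3.60 for Porcn. H2-D1 and Jag1 did not pass in luminal cells alone. H2-D1, a class I antigen-presenting gene, was at 366 and 341 CPM in luminal duct replicates 1 and 3 and at 574, 594 and 651 CPM in luminal TEB (FDR 0.132), and fell in basal TEB from 188 ± 45.7 to 66.2 ± 14.3 CPM (SD, n = 3, FDR 0.00585). Class I genes share sequence, so its counts are less certain. Jag1, a Notch ligand, was at 48.1 and 68.3 CPM in luminal ducts and 92.4, 96.0 and 109 CPM in luminal TEB (FDR 0.0979), and fell in basal TEB from 182 ± 36.5 to 97.9 ± 2.57 CPM (FDR 0.0426). Luminal and basal values moved apart in sign for both genes.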

How the results depend on the processing

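The 245 genes called between luminal TEB and duct were 111 higher and 134 lower in TEB. The count was 1277 (534 higher, 743 lower) by DESeq2's Wald test, 1006 (458 and 548) by edgeR's likelihood ratio test, 603 (312 and 291) with the luminal libraries alone, 125 (38 and 87) with the replicate block, 92 (32 and 60) with the mitochondrial share as a covariate and 10 (5 and 5) with no composition normalization, which shifted the median over all genes from 0.04 to 0.42 on the log2 scale. Genes lower in TEB numbered 222 by limma voom and 211 without a filter, and limma voom with quality weights gave 59 higher and 250 lower. Without the 2 libraries of highest mitochondrial share, chosen after seeing the data, 372 were called, 186 of them higher. With each library left out in turn, the count ran from 37 (without TEB replicate 3) to 1305 (without duct replicate 1), with 13 to 759 higher and 24 to 546 lower. Calls against each duct library, 68 in all, numbered 2493 with the luminal libraries alone, 463 by voom with quality weights, 345 by DESeq2, 232 by the likelihood ratio test, 103 by voom, 28 with the replicate block, 3 with no composition normalization and 28 to 168 with a library left out (without TEB replicate 3 and basal TEB replicate 1). The interaction, at 77 genes, gave 712 by DESeq2, 629 by the likelihood ratio test, 198 without the 2 libraries of highest mitochondrial share, 141 without a filter, 46 with the replicate block, 15 with no composition normalization, 3 with the mitochondrial covariate and 7 (without basal duct replicate 1) to 753 (without luminal duct replicate 1) with a library left out. The causes of these differences were not tested. DESeq2 size factors and the removal of mitochondrial genes kept each of these counts within 1.5 times. No called gene named here changed sign in any of these fits. Of 63 such genes, 63 kept the call with DESeq2 size factors, 62 by DESeq2, 40 with the replicate block, 38 by voom, 33 with the covariate and 5 with no composition normalization. Deviations of same-numbered luminal libraries correlated at 0.163 (replicate 1) and 0.0689 (replicate 3), while duct replicate 3 and TEB replicate 2 gave 0.103. With only 2 duct libraries their deviations mirror each other, so these values cannot decide the pairing. The labels do not say what a number marks, so the fit without the block was used. With 2 duct libraries of unlike quality, the duct level of each gene rests on 2 values.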

Other observations

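Among the 245 called genes, 11 had no read in either luminal duct library, all higher in TEB and chosen here after their values were seen. Map6, which encodes a microtubule-stabilizing protein, had 0 and 0 reads in duct replicates 1 and 3 and 73, 96 and 97 reads in TEB replicates 1 to 3, or 1.78 ± 0.12 CPM in TEB (SD, n = 3). Against a limit of 3 counts in each duct library it was at least 18.6-fold higher in TEB, and it passed against each duct library and with any 1 library left out (FDR 0.00377 by edgeR with all libraries). Its level in the basal libraries ran from 10.2 to 60.3 CPM. Gpr161, a receptor of the primary cilium, had 67, 38 and 96 reads in TEB, at least 14.2-fold higher (FDR 0.0264), and Sh3gl2, an endophilin, had 13, 91 and 85, at least 12.7-fold higher (FDR 0.0230). Neither passed against duct replicate 1 alone (FDR 0.0722 and 0.0709), and without TEB replicate 3 the FDR was 0.0855 and 0.0755. The other 8 genes had at most 71 reads in a TEB library.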
